A study of Mus musculus with 8 samples.

Results

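Immediate early genes are switched on within minutes of a stimulus, without new protein synthesis. The 10 described here are Fos, Fosb, Jun, Junb, Egr1, Atf3, Nr4a1, Ier2, Ier3 and Zfp36. They were chosen by name and found by their symbols among the 42256 Ensembl rows of the deposited count table, where each matched 1 row, and all 10 passed the filter on low counts that left 15852 genes for testing. The kidneys came from adult male mice of a mixed background (129S1/Sv x C57BL/6). Every mouse had received aristolochic acid, a plant toxin that injures the proximal tubule, at 3 mg/kg on each of 5 days, and was killed 2 weeks after the last dose. The mice were 4 labelled CDH11+/+ and 4 labelled CDH11-/-, with 1 library per mouse and no uninjured group in this comparison. The title of the series names Unx/AngII instead, and the samples are described here by their own labels. The sources used here do not say how the CDH11 allele was made.

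In a resting cell these genes are nearly silent and their promoters are held ready. Growth factors, cytokines, stretch, ischaemia and oxidants act through MAP kinases and calcium on the serum response factor with its ETS partners, and on CREB, to start transcription. Most of the messages carry AU-rich elements and decay quickly, so their level follows recent signalling. FOS and JUN family proteins pair as the transcription factor AP-1, EGR1 and NR4A1 are further transcription factors, and ZFP36 (tristetraprolin) is an RNA-binding protein that removes AU-rich messages. In the kidney they are known as early markers of tubule injury, and they are also known to respond to the handling of tissue.

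The short promoters and AU-rich tails of the group are shown here because the choice by name did not use them. Of the 10 genes, 8 have a start site in the RefSeq promoter table (GRCm38.p6), and 250 bases before each start were searched. Ier2 and Egr1 were not searched. The 120 bases next to the start are printed for Fos and Nr4a1, which had the largest spread between mice among members above a mean of 5 CPM (counts scaled to the same library total), and for Fosb, the close relative of Fos. Capitals mark GGGCGG (an SP1 GC box), GCGNGGGCG (an EGR1 site, which overlaps a GC box in Fosb and Nr4a1), TGACG (the core of a cAMP response element) and TATAAA. All were searched on both strands except TATAAA, which was searched on the sense strand. TGACG was added after the sequences had been read. The stretches are chr12:85473770-85473889 (plus strand), chr7:19310046-19310165 (minus) and chr15:101266726-101266845 (plus). The Nr4a1 stretch lies inside the gene as annotated in GENCODE M21, so its start is an internal one. The same holds for the Atf3 stretch, which is not printed.
Fos: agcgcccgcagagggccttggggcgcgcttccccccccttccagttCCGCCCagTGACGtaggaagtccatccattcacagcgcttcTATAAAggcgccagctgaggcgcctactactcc
Fosb: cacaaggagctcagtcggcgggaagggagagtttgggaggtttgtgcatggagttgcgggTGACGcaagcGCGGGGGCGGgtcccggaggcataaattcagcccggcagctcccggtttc
Nr4a1: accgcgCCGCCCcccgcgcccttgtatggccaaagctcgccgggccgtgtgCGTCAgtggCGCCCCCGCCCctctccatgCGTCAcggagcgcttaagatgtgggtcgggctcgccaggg

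Over the full 250 bases, 7 of the 8 promoters held GGGCGG, where 32.7% of 32851 promoter windows did. TGACG stood in 5 of 8 (Fos, Fosb, Junb, Atf3 and Nr4a1), against 17.8% of windows. GCGNGGGCG stood in 3 of 8 (Fosb, Nr4a1 and Zfp36), against 4.70%. A CArG box, the site of the serum response factor, was found in the Zfp36 window alone, from −58 to −49 relative to the start, sharing 1 base with a GC box. In GENCODE M21 this stretch lies in the 5′ untranslated exon of a longer Zfp36 transcript, so it is not printed. CArG boxes were in 1.47% of windows. TATAAA was found in Fos alone, from −33 to −28, against 7.59% of windows. The AP-1 site TGANTCA (6.75% of windows) and the full cAMP response element TGACGTCA (1.55%) were in 0 of the 8. A match describes these letters and no more. An absence holds for these windows alone, since nothing beyond the 250 bases was searched.

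The genes are compact. In the 1 transcript taken per gene, Jun, Junb and Ier2 have 1 exon, as do 2.53% of 14242 tested protein-coding genes. As annotated genes, 7 of the 10 span under 6000 bases, as do 13.7% of those genes. AU-rich pentamers (ATTTA) occur in the 3′ untranslated sequence of 9 of the 10, with Ier2 at 0, and in that of 68.4% of the tested genes. Their median density is 3.56 per kb in the 10, where all tested genes have 1.26 per kb. The longer element TTATTTATT, the kind that ZFP36 binds, occurs in 2 of the 10 and in 7.46% of tested genes. These sites lie at chr12:85477105-85477129 (plus strand) in Fos and at chr7:28376953-28376977 (minus strand) in Zfp36 itself (GRCm38), and are printed with the element in capitals.
Fos: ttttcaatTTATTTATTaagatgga
Zfp36: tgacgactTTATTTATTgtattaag

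The loci in GENCODE M21 (GRCm38) are on 8 chromosomes. The AP-1 subunits are Fos at chr12:85473890-85477273 (plus strand), Fosb at chr7:19302696-19310051 (minus strand), Jun at chr4:95049034-95052222 (minus strand) and Junb at chr8:84974484-84978718 (minus strand). The other transcription factors are Atf3 at chr1:191170296-191218039 (minus strand), Egr1 at chr18:34859823-34864984 (plus strand) and Nr4a1 at chr15:101254269-101274795 (plus strand). The remaining genes are Ier2 at chr8:84661331-84662852 (minus strand), Ier3 at chr17:35821684-35822923 (plus strand) and Zfp36 at chr7:28376784-28380253 (minus strand). Jun, Junb, Atf3 and Zfp36 each overlap a gene on the opposite strand, and the sources used here do not say whether strand was used in counting.

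Libraries held 10675309 to 18539479 counts, with a mean of 12656695 ± 1385885 for the label CDH11+/+ and 15383984 ± 2369045 for CDH11-/- (SD over 4 libraries, exact permutation p = 0.0857, two-sided, adjusted 0.343 over 4 library measures). The smallest p that 4 against 4 can give is 0.0286. Cdh11, the targeted gene, was at 58.0 to 75.6 CPM in the libraries labelled CDH11+/+ and at 89.9 to 117.2 CPM in those labelled CDH11-/-. It was thus called as higher with the label CDH11-/-, against what the label says, with a log2 fold change of 0.69 (edgeR adjusted p = 0.0243). Genotypes are therefore given as labelled, and a positive fold change means a higher level with the label CDH11-/-. CDH11+/+ replicate 1 stood apart on the second principal component at 41.0, the others being between −26.1 and 9.92. All 9 kidney segment markers were detected. Proximal tubule markers were lower with the label CDH11-/- in 10 of 10, with a median log2 fold change of −0.83 and 9 at an unadjusted p under 0.05. Without Kap, which varied most (283.8 to 4363 CPM over the 8 libraries), the other 9 summed to 1668 to 3572 CPM with the label CDH11+/+ and 1083 to 1561 CPM with CDH11-/-, without overlap, and with Kap to 1952 to 6578 and 1696 to 4872 CPM. Endothelial markers (7 genes) summed to 307.3 to 420.9 and 433.3 to 473.4 CPM, also without overlap, and 8 macrophage markers to 3204 to 4502 and 3811 to 4866 CPM. Of 6 lymphocyte markers, Jchain, a plasma cell gene, was at 3.57 to 94.3 and 189.1 to 246.5 CPM, while the other 5 summed to 24.8 to 31.2 and 26.1 to 40.8 CPM and overlapped. No gene of these marker lists passed the test, and their part in the results was not tested. In whole tissue, fewer cells of a type and less RNA per cell cannot be told apart. The labels do not say that the mice came from separate litters, so p-values measure the spread between these 8 samples.

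The immediate early genes were expressed at low to moderate levels in all 8 kidneys, and none passed the test between the labelled genotypes. Of the 10, 0 passed the test (edgeR quasi-likelihood, Benjamini-Hochberg adjusted p from 0.345 to 0.990), where 0.719% of all tested genes passed, 0.372% upward and 0.347% downward. DESeq2 and limma-voom also called 0. At an unadjusted p under 0.05 there were 2, Ier3 and Zfp36, in opposite directions, and 14.1% of all tested genes reached that level. In 0 of the 10 did the groups separate without overlap, as they did in 7.33% of tested genes. Log2 fold changes ran from −0.25 to 0.24, 6 positive and 4 negative, with a median of 0.01 beside −0.01 over all tested genes. The 95% intervals of the 10 reached from −0.65 to 0.62, so differences larger than 1.54-fold upward, or below 0.638 of the CDH11+/+ level, lay outside all of them.

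**Figure D1:**
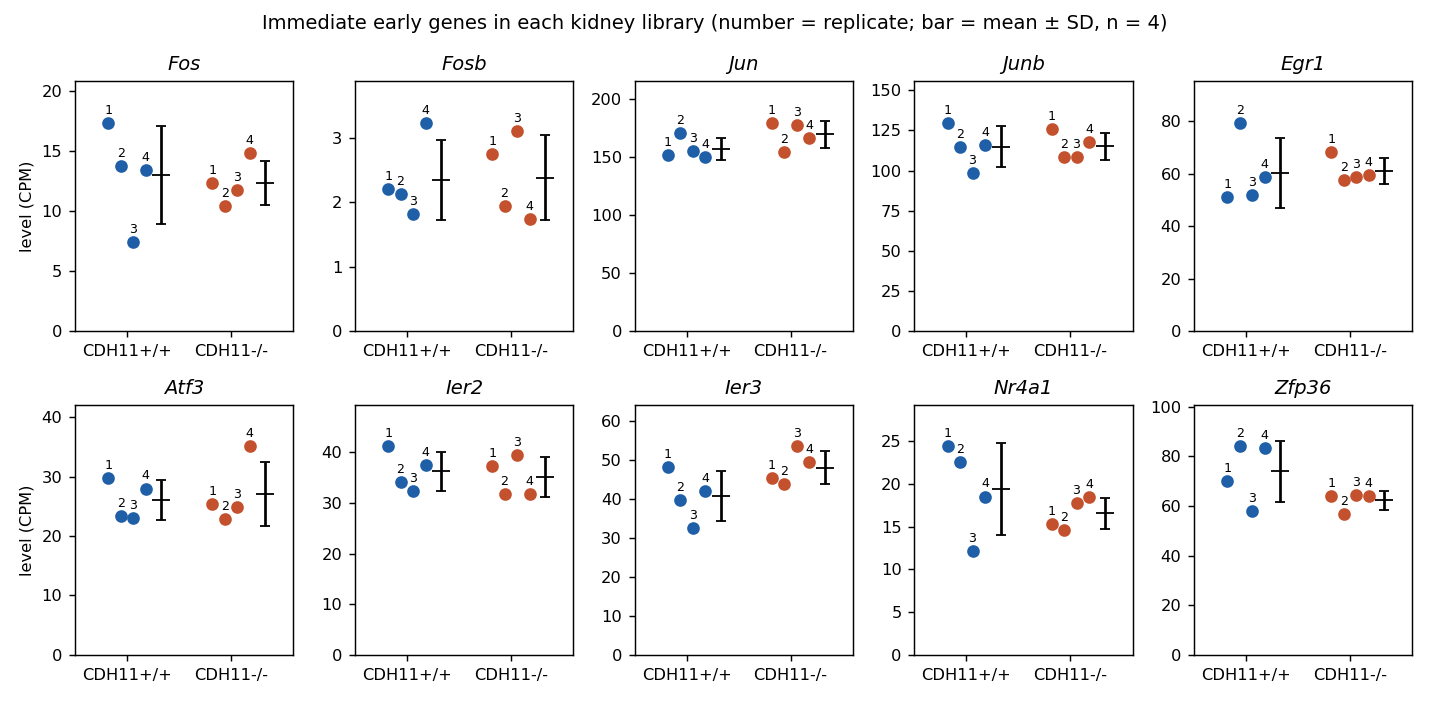
Level of each immediate early gene in CPM (vertical axis from 0, a scale per gene) in the 4 libraries labelled CDH11+/+ (blue) and the 4 labelled CDH11-/- (red). Numbers are replicates and bars the mean ± SD (n = 4). The colours overlap in every panel, and CDH11+/+ replicate 3 is the lowest blue point in 8 of the 10.

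For a rough comparison between genes, levels were divided by the length of all annotated exons, pooled over the transcripts of a gene. For Zfp36 that length equals the whole gene span (3470 bases), although the transcript taken for it has 2 exons. The order of the genes therefore depends in part on the annotation. Jun had the highest mean (51.3 CPM per kb) and Fosb the lowest (0.379 CPM per kb). Junb followed Jun at 49.9 CPM per kb, then Ier3 at 39.3, Ier2 at 23.4, Zfp36 at 19.6, Egr1 at 13.5, Atf3 at 12.3, Fos at 5.39 and Nr4a1 at 5.12 CPM per kb. Over the 8 libraries most neighbours in this order overlapped. The steps without overlap were from Ier3 (28.9 to 47.4 CPM per kb) to Ier2 (20.9 to 27.0), from Atf3 (10.6 to 16.3) to Fos (3.16 to 7.38), and from Nr4a1 (3.47 to 6.94) to Fosb (0.279 to 0.519). The jun genes were thus present at a higher level per length than Fos and Fosb.

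Fos encodes the inducible AP-1 subunit whose message is among the shortest lived. Its level in replicates 1 to 4 was 17.3, 13.8, 7.44 and 13.4 CPM with the label CDH11+/+, and 12.4, 10.4, 11.8 and 14.8 CPM with CDH11-/-. The highest and the lowest library both carried the label CDH11+/+, and the other group lay wholly between them. The groups averaged 13.0 ± 4.11 and 12.3 ± 1.86 CPM (SD, n = 4), and the log2 fold change was −0.07 with an SE of 0.22 (edgeR adjusted p = 0.918). Without CDH11+/+ replicate 3 the value was −0.27, and without replicate 1 it was 0.10.

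Fosb, the close relative of Fos, was the least abundant of the 10. Replicates 1 to 4 were at 2.21, 2.13, 1.82 and 3.24 CPM with the label CDH11+/+ and at 2.75, 1.94, 3.11 and 1.74 CPM with CDH11-/-. Replicate 4 labelled CDH11+/+ and replicates 1 and 3 labelled CDH11-/- were the highest, and the groups overlapped throughout. The log2 fold change was 0.03 ± 0.27 (SE, edgeR adjusted p = 0.973). Its counts were 23 to 59 per library, the fewest of the 10.

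Jun encodes the main partner of FOS in AP-1, and its protein can also pair with itself. It was at 152.2, 171.1, 155.3 and 150.3 CPM in CDH11+/+ replicates 1 to 4 and at 179.9, 154.6, 177.8 and 166.5 CPM in the libraries labelled CDH11-/-. Replicates 1 and 3 labelled CDH11-/- were the highest of the 8, while replicates 2 and 4 of that label lay within the CDH11+/+ range. The groups averaged 157.2 ± 9.49 and 169.7 ± 11.6 CPM (SD, n = 4), and the log2 fold change was 0.11 with an SE of 0.07 (edgeR adjusted p = 0.507).

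Junb, which encodes a JUN relative with weaker activating power, was at 129.7, 114.9, 98.7 and 115.8 CPM with the label CDH11+/+. With the label CDH11-/- it was at 125.9, 108.6, 108.1 and 117.7 CPM, all inside the CDH11+/+ range. The groups averaged 114.8 ± 12.7 and 115.1 ± 8.47 CPM (SD, n = 4), and the log2 fold change, the nearest to 0 of the 10, was 0.00 with a 95% interval from −0.18 to 0.19 (edgeR adjusted p = 0.990). Prdx2, on the opposite strand of the Junb locus, was at 179.7 to 204.5 CPM, and reads of these genes may not be told apart.

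Atf3 encodes a stress-induced factor that pairs with JUN proteins and can repress its targets. Replicates 1 to 4 were at 29.7, 23.4, 23.1 and 28.0 CPM with the label CDH11+/+ and at 25.5, 22.9, 24.9 and 35.1 CPM with CDH11-/-. CDH11-/- replicate 4 was the highest library, and the remaining 3 of its group lay within or just below the CDH11+/+ range. The log2 fold change was 0.05 ± 0.14 (SE, edgeR adjusted p = 0.899).

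Egr1 encodes a zinc finger factor of the growth factor response. It was at 51.0, 79.5, 51.8 and 58.8 CPM with the label CDH11+/+, where replicate 2 was the highest of all 8. With the label CDH11-/- it was at 68.4, 57.6, 58.8 and 59.5 CPM, all inside the CDH11+/+ range. The groups averaged 60.3 ± 13.3 and 61.1 ± 4.93 CPM (SD, n = 4), and the log2 fold change was 0.02 ± 0.13 (SE, edgeR adjusted p = 0.969).

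Nr4a1 encodes an orphan nuclear receptor, NUR77. It was at 24.4, 22.5, 12.2 and 18.5 CPM in CDH11+/+ replicates 1 to 4. With CDH11-/- it was at 15.3, 14.6, 17.8 and 18.4 CPM. As with Fos, the CDH11+/+ libraries held both the highest and the lowest value and enclosed the other group. The groups averaged 19.4 ± 5.39 and 16.5 ± 1.85 CPM (SD, n = 4), and the log2 fold change was −0.23 with an SE of 0.19 (edgeR adjusted p = 0.643). Without CDH11+/+ replicate 3 the value was −0.40 and without replicate 1 it was −0.09, and neither passed (edgeR adjusted p = 0.256 and 0.828).

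Ier2, a small single-exon gene for a nuclear protein, was at 41.2, 34.2, 32.4 and 37.4 CPM with the label CDH11+/+ and at 37.2, 31.8, 39.5 and 31.7 CPM with CDH11-/-. The groups covered almost the same range. The log2 fold change was −0.05 ± 0.10 (SE, edgeR adjusted p = 0.876).

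Ier3, also known as IEX-1, encodes a membrane protein with a part in cell survival, and had the highest fold change of the 10. It was at 48.3, 39.9, 32.7 and 42.1 CPM with the label CDH11+/+ and at 45.5, 43.9, 53.6 and 49.6 CPM with CDH11-/-. CDH11+/+ replicate 1 lay among the CDH11-/- libraries, and the other 3 lay below all of them. The groups averaged 40.7 ± 6.43 and 48.2 ± 4.34 CPM (SD, n = 4), and the log2 fold change was 0.24 with an SE of 0.11 (unadjusted p = 0.0489, edgeR adjusted p = 0.352). Without CDH11+/+ replicate 1, the library that stood apart, it was 0.34 (edgeR adjusted p = 0.0635), and over the 18 alternatives the adjusted p ran from 0.0635 to 0.629.

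Zfp36 had the lowest fold change of the 10. It was at 70.2, 84.0, 58.1 and 83.5 CPM with the label CDH11+/+ and at 64.1, 56.6, 64.6 and 64.0 CPM with CDH11-/-. Of the CDH11+/+ libraries 3 lay above all of those labelled CDH11-/-, and replicate 3 lay among them. The groups averaged 74.0 ± 12.3 and 62.3 ± 3.81 CPM (SD, n = 4), and the log2 fold change was −0.25 with an SE of 0.11 (unadjusted p = 0.0457, edgeR adjusted p = 0.345). Its adjusted p over the 18 alternatives ran from 0.121 to 0.676.

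**Figure D2:**
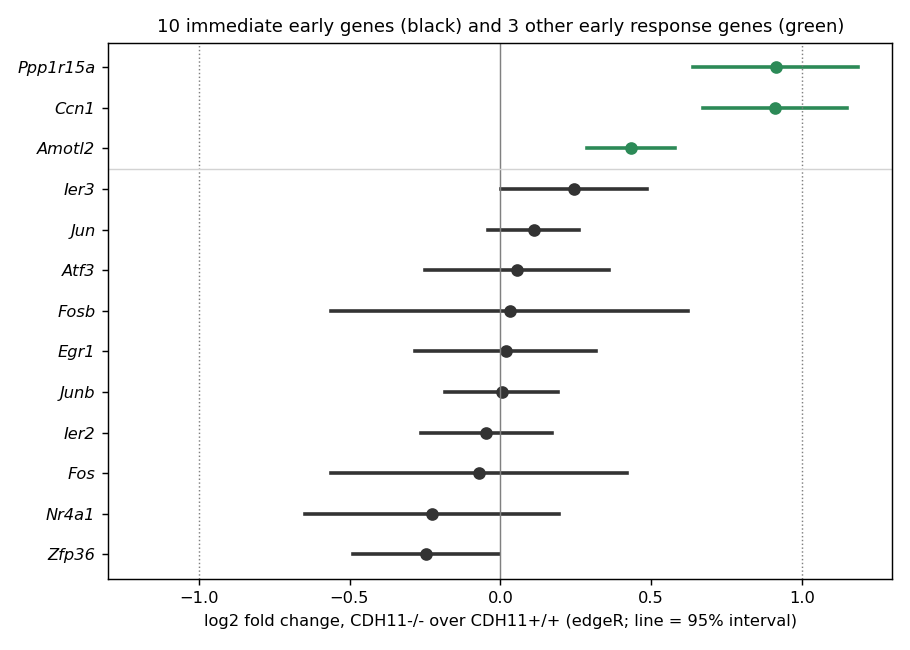
Log2 fold change of the libraries labelled CDH11-/- over those labelled CDH11+/+ (edgeR, horizontal axis) with its 95% interval, for the 10 immediate early genes (black) and the 3 other early response genes that passed the test (green). Dotted lines mark 2-fold differences, and the black intervals all lie between −0.65 and 0.62.

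In 7 of the 10 genes the SD between mice of a genotype was larger than the log2 fold change, the exceptions being Jun, Ier3 and Zfp36. Pooled over both groups, the within-genotype SD of log2 CPM was 0.39 for Fos and 0.33 for Nr4a1. Among tested genes within 2-fold of its mean level, 94.4% had a smaller SD than Fos and 93.9% a smaller SD than Nr4a1. The corresponding share was 90.4% for Egr1, 87.5% for Atf3, 85.3% for Zfp36, 83.3% for Ier3, 71.6% for Junb and 70.9% for Ier2. Jun (46.1%) and Fosb (49.2%) varied about as much as other genes of their level. By label, the SD of log2 CPM of Fos was 0.51 with CDH11+/+ and 0.21 with CDH11-/-. It was 0.44 and 0.16 for Nr4a1, 0.30 and 0.11 for Egr1 and 0.25 and 0.09 for Zfp36, but 0.18 and 0.27 for Atf3. The high pooled SDs of Fos, Nr4a1, Egr1 and Zfp36 thus came mostly from the CDH11+/+ libraries. The median pooled SD of genes near the level of Fos was 0.17, and near that of Nr4a1 0.15. In CPM, the SD of Fos was 4.11 with the label CDH11+/+ and 1.86 with CDH11-/-. The CPM SD was smaller with the label CDH11-/- in 6 of the 10 genes and larger in 4, and was smaller in 55.6% of tested genes.

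**Figure D3:**
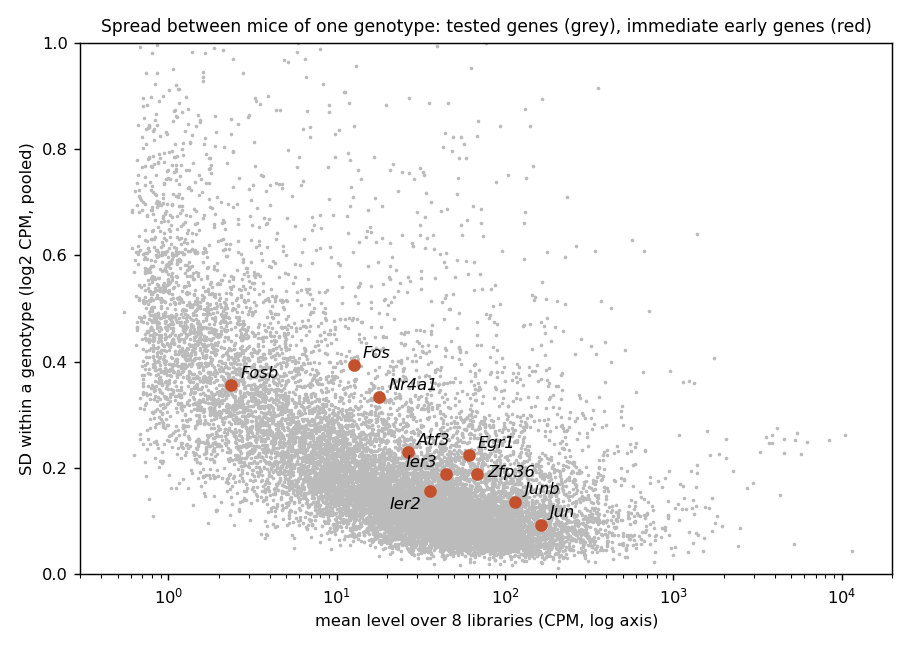
Within-genotype SD of log2 CPM, pooled over the 2 groups (vertical axis), against mean level (CPM, log axis) for tested genes (grey) and the 10 immediate early genes (red). The 188 tested genes with an SD above 1 lie outside the plotted range, and Fos and Nr4a1 sit near the upper edge of the grey cloud at their level.

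The genes were low together in 2 libraries. In CDH11+/+ replicate 3 and in CDH11-/- replicate 2 all 10 lay below their own mean over the 8 libraries, by 0.30 and 0.16 on average on the log2 scale. CDH11+/+ replicate 3 was the lowest of its group in 8 of the 10, and in 23.3% of all tested genes. For CDH11-/- replicate 2 this was so in 7 of the 10, and in 24.3% of all tested genes. In each of the other 6 libraries 5 to 7 of the 10 lay above their mean, and the average over the 10 was 0.04 to 0.13. Among all 15852 tested genes, 47.9% lay below their own mean in CDH11+/+ replicate 3 and 49.2% in CDH11-/- replicate 2. Summed levels of related genes were low there too, though a sum follows its most abundant genes. The summed levels of other AP-1 genes (678.6 CPM), relatives of the 10 (672.2 CPM), other immediate early genes (3342 CPM) and upstream genes (1709 CPM) were each the lowest of the 8 libraries in CDH11+/+ replicate 3, and 3 of these 4 sums were the lowest of their group in CDH11-/- replicate 2. The upstream sum of CDH11-/- replicate 2 (1745 CPM) was close to that of CDH11-/- replicate 1 (1749 CPM). Single genes of these lists did not all fall, and some were at their highest of the 8 libraries in CDH11+/+ replicate 3. CDH11+/+ replicate 3 and CDH11-/- replicate 2 were the lowest on the second principal component (−16.8 and −26.1). They had the highest Kap of their group (4363 and 3311 CPM). The other 9 proximal tubule markers summed to 2215 CPM in CDH11+/+ replicate 3, where the group ran from 1668 to 3572 CPM. In CDH11-/- replicate 2 they summed to 1561 CPM, the highest of its group (from 1083 CPM). That library also had the lowest injured tubule (1317 CPM), macrophage (3811 CPM), smooth muscle (358.2 CPM) and fibroblast (701.6 CPM) sums of its group. CDH11+/+ replicate 3 was the lowest of its group in none of these but the second lowest in each. Its sums, in the same order, were 1598, 3275, 302.9 and 650.1 CPM. The lowest of the group were 1531, 3204, 274.7 and 649.3 CPM. The part of tissue composition in this pattern was not tested.

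**Figure D4:**
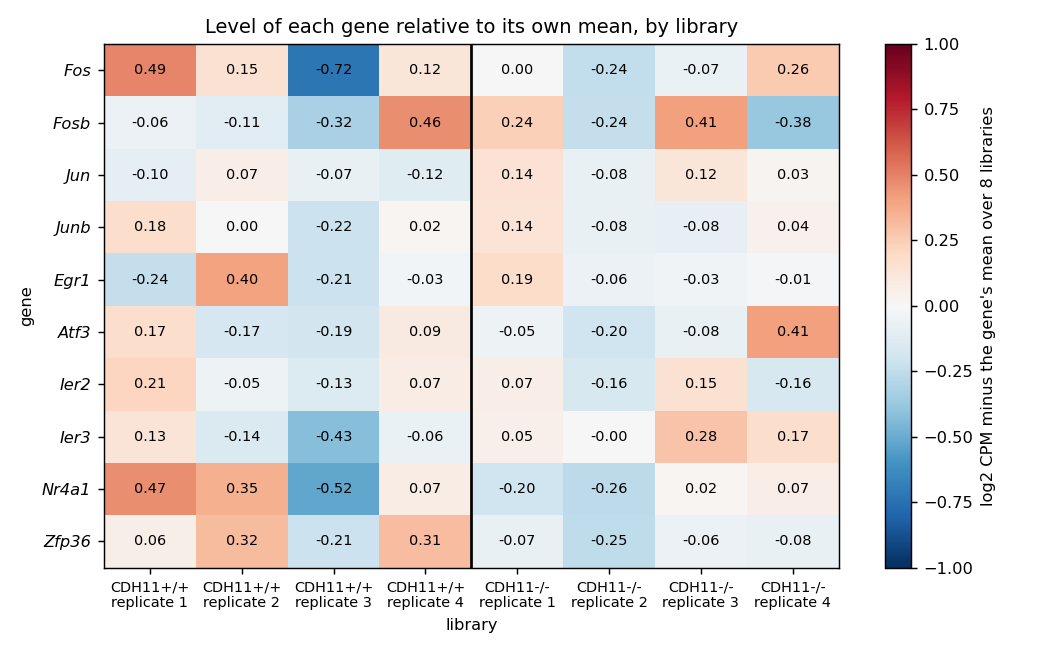
Log2 CPM of each immediate early gene (rows) in each library (columns) minus that gene's mean over the 8 libraries. Blue cells are below the mean and red cells above it, and the columns of CDH11+/+ replicate 3 and CDH11-/- replicate 2 are blue or near 0 throughout.

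Likeness was measured as the root-mean-square difference between mean-centred log2 CPM over the 8 libraries. It is small where profiles match, but it also grows with a gene's own spread, so pairs of different spread cannot be ranked by it. Fos and Nr4a1 differed by 0.14, where the root-mean-square of their own profiles was 0.34 and 0.30. Fos and Fosb differed by 0.41, with 0.34 and 0.31 for their own profiles. Among 12729 other genes at a mean of at least 5 CPM, the profile of Fos was matched most closely by Pf4 (0.07, platelet factor 4), then by Efna5 (0.15), Pik3ap1 (0.16), Nfatc4 and Nrros (0.17 each), leaving out 1 predicted gene. The average profile of the 10 was matched most closely by Dda1, Smad3, Ubqln2, Src and Bcor (0.05 to 0.06). These are descriptions over 8 libraries.

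The authors' normalized values changed the picture for Fos and, less, for Fosb. In that table each count is divided by a factor of its own gene and library. Relative to the median factor of the library, the factor of Fos was 0.957, 0.938, 0.754 and 0.914 with the label CDH11+/+. With CDH11-/- it was 1.16, 1.23, 1.18 and 0.945, so 3 of these 4 libraries lay above 1 and all CDH11+/+ libraries below it. A difference in factor this large between the labels was exceeded by few genes: 98.3% of 14733 genes had a smaller one. In the authors' values Fos was 250.9, 201.8, 135.3 and 201.6 with the label CDH11+/+ and 147.2, 117.3, 139.4 and 216.8 with CDH11-/-. Its log2 fold change moved from −0.07 to −0.35 (limma, adjusted p = 0.560), or to −0.36 with the factors as offsets (edgeR adjusted p = 0.539), and did not pass. The factors of Jun, Ier3 and Zfp36 stayed between 0.982 and 1.02.

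**Figure D5:**
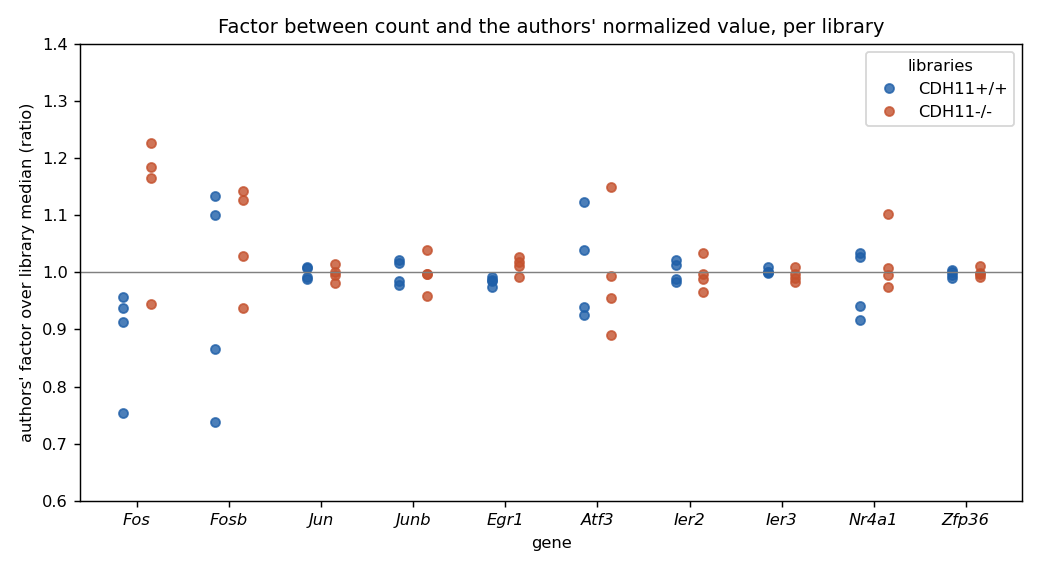
Factor that links the count to the authors' normalized value, divided by the median factor of the library (vertical axis, ratio), for the 10 genes in libraries labelled CDH11+/+ (blue) and CDH11-/- (red). The points of Fos separate by label except for 1 red point at 0.945, those of Fosb and Atf3 are scattered, and those of Jun, Ier3 and Zfp36 lie close to 1.

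Genes around the 10 were taken from 5 lists, 115 genes in all. Of these, 111 were tested and 3 passed (edgeR adjusted p under 0.05, with 0.719% of all tested genes passing). The lists, like the 10 members, were chosen with earlier results of these data known. Their shares past a threshold therefore cannot be weighed against those of all tested genes. Of 42 other immediate early genes 41 were tested, 23 with a positive and 18 with a negative log2 fold change, and the median was 0.07. Past the adjusted threshold 3 rose and 0 fell. At an unadjusted p under 0.05 (edgeR) there were 9, a level that 14.1% of all tested genes reached. These 9 went in both directions, with log2 fold changes from −0.65 to 0.91. Ccn1, a secreted matricellular protein gene driven by serum response factor and YAP, was at 128.3, 103.5, 102.6 and 115.5 CPM with the label CDH11+/+ and at 227.7, 168.4, 223.2 and 226.5 CPM with CDH11-/-. All 4 libraries labelled CDH11-/- lay above every library labelled CDH11+/+, and the log2 fold change was 0.91 with an SE of 0.11 (edgeR adjusted p = 0.00571).

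Ppp1r15a (GADD34), which recruits the phosphatase that ends the integrated stress response, rose by 0.91 ± 0.12 (log2, SE, edgeR adjusted p = 0.00934). It was at 18.5, 20.2, 18.6 and 27.7 CPM with the label CDH11+/+ and at 43.8, 37.7, 37.6 and 41.3 CPM with CDH11-/-, without overlap. Amotl2, an angiomotin family gene known as a YAP target, rose by 0.43 ± 0.07 (log2, SE, edgeR adjusted p = 0.0184), from 136.7 ± 9.44 to 184.6 ± 9.22 CPM (SD, n = 4 each). Ccn1 passed in all 18 alternatives, Ppp1r15a in 15 and Amotl2 in 12. The calls of Ppp1r15a and Amotl2 ended with the authors' values (limma adjusted p = 0.0602 for both) and with their factors as offsets (edgeR adjusted p = 0.0605 for both). Without CDH11+/+ replicate 2 they were at edgeR adjusted p = 0.050019 and 0.0549, and Amotl2 was lost also without CDH11+/+ replicate 4 (0.0824), CDH11-/- replicate 1 (0.0658) or CDH11-/- replicate 3 (0.0671).

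In the other lists 0 genes passed in edgeR. The 12 other AP-1 genes had a median of 0.02, with 1 at an unadjusted p under 0.05, the small MAF gene Mafk (0.21 ± 0.08, SE, edgeR adjusted p = 0.247). Mafk passed in limma-voom (adjusted p = 0.0428) and without CDH11+/+ replicate 1 (edgeR adjusted p = 0.0440). Batf2 followed at −0.26 (edgeR adjusted p = 0.555). Of 11 relatives of the members 10 were tested, with a median of 0.02, 0 at an unadjusted p under 0.05 and Egr2 (0.42 ± 0.22, SE, edgeR adjusted p = 0.439) and Egr3 (0.27, edgeR adjusted p = 0.677) at the smallest p. The 27 upstream signalling genes and transcription factors had a median of 0.00 and 0 at an unadjusted p under 0.05. Srf, the serum response factor, was at 0.21 ± 0.10 (SE, edgeR adjusted p = 0.362) and Atf1 at −0.16 (edgeR adjusted p = 0.424).

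Of 23 transcripts known as AP-1 or ZFP36 targets 21 were tested, with a median of 0.11. At an unadjusted p under 0.05 (edgeR) there were 6, a level that 14.1% of all tested genes reached. This list too was chosen with earlier results known, so its share cannot be weighed against that of all tested genes. Mmp9, a gelatinase gene, was at 7.29, 4.71, 4.59 and 6.63 CPM with the label CDH11+/+ and at 15.3, 8.02, 9.66 and 12.6 CPM with CDH11-/-. These groups did not overlap, as in 7.33% of all tested genes, but the log2 fold change of 0.98 ± 0.23 did not pass (SE, edgeR adjusted p = 0.0819). DESeq2 (adjusted p = 0.00472) and 4 other alternatives passed it, among them the one without CDH11+/+ replicate 1 (edgeR adjusted p = 0.0224). Cxcl1, a neutrophil chemokine gene whose message ZFP36 is known to remove, was at 48.4, 73.5, 40.9 and 49.4 CPM with the label CDH11+/+. With CDH11-/- it was at 31.6, 31.5, 36.3 and 36.4 CPM, below all of the former, and the log2 fold change was −0.64 with an SE of 0.17 (edgeR adjusted p = 0.137). Only DESeq2 called it (adjusted p = 0.00845). Summed neutrophil markers were at 18.4 to 27.9 and 18.9 to 23.4 CPM, and 5 of those 7 genes were too low to test. Csf3r alone took most of each sum, at 17.5 to 26.3 and 17.1 to 21.4 CPM, so the sums follow that gene.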

How the data were processed

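RNA of 8 kidneys was sequenced with a directional library kit, per the labels' protocols. The authors deposited raw counts by Ensembl gene, which are whole numbers, and a table of normalized values, a signal on the scale of counts. The submitters' processing notes name mm10, DRAGEN and DESeq2, without versions. Over 14733 genes with 10 counts or more per library, 33.1% of the authors' factors (count over normalized value) lay within 1% of their library's median, so they differ between genes. There were 0 columns of other samples.

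Symbols came from GENCODE M21 (GRCm38). Of 42256 identifiers 42170 had a name. Counts were tested with edgeR 4.0.16 in R 4.3.3 (quasi-likelihood, robust, TMM, edgeR's filter, genotype as the only term), with Benjamini-Hochberg adjustment over 15852 genes at 0.05. Standard errors were taken from the fold change and its F statistic (size over root F). CPM used TMM library sizes, and log2 CPM a prior count of 2. Libraries of 10675309 to 18539479 counts leave genes near 2 CPM with counting error, while the spread between mice limits the others.

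The members and lists were chosen with earlier results of these data known. Named genes were the 10 members, list genes past the threshold or of the 2 smallest p per list, and the 5 genes closest in profile. Alternatives were DESeq2 1.42.0, limma-voom (limma 3.58.1), other scalings and filters, no robust moderation, the authors' values with a pseudocount of 1, their factors as offsets, 1 surrogate variable (sva 3.50.0) and leaving out each library.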

Additional observations from a re-analysis of the deposited data

Results flagged for a closer look

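Zfp36 in CDH11-/- replicate 2, at 56.6 CPM, lay far from the other 3 libraries of its group, which were between 64.0 and 64.6 CPM. It was singled out by a gap test within groups of 4, which was applied to 28 groups of values and marks about 1 in 20 by chance. In the same library all 10 immediate early genes, Zfp36 among them, lay below their own mean, though Ier3 only just (−0.0037 on the log2 scale).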

How the results depend on the processing

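No immediate early gene passed in any of the 18 alternatives, and the lowest adjusted p among the 180 values was 0.0635. Fold changes near 0 changed sign in 22 of them. Fos became 0.0067 with limma-voom, and 0.10 at the highest and −0.27 at the lowest with 1 library left out. Fosb became −0.13 with limma on the authors' values and −0.094 with their factors as offsets (−0.12 to 0.23 with 1 library left out). Junb (−0.047) and Atf3 (−0.061) changed sign with 1 surrogate variable, Egr1 with the factors as offsets (−0.0088), and Ier2 with library size alone (0.0026) and limma-voom (0.024). With 1 library left out, Junb ran from −0.062 to 0.078, Egr1 from −0.049 to 0.18, Atf3 from −0.080 to 0.13 and Ier2 from −0.10 to 0.030. Jun, Ier3, Nr4a1 and Zfp36 kept their sign in all 18.

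The count of 114 genes past the threshold became 208 without a filter on low counts, 515 with DESeq2, 679 with limma-voom, 54 with limma on the authors' values, 50 with their factors as offsets and 535 with 1 surrogate variable. It ran from 26 (without CDH11+/+ replicate 4) to 1004 (without CDH11+/+ replicate 1) with 1 library left out. The 3 calls among the surrounding lists became 9 with DESeq2, 8 with limma-voom, 7 with 1 surrogate variable and 1 with the authors' values or factors, and ran from 1 (without CDH11+/+ replicate 2) to 10 (without CDH11+/+ replicate 1). The median within-genotype SD of the 10 genes, 0.21, moved by less than the spread between them with a prior count of 0.5 or with total counts as library sizes. No paired analysis was possible because the labels carry no replicate numbers, and those used here only name the libraries and tie none to a litter, batch or day. Counting error limits Fosb, with 23 to 59 counts per library.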
